A study of Mus musculus with 12 samples.

Results

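The genes described here are Nfe2l2, which encodes the transcription factor NRF2, Keap1, which encodes the protein that holds NRF2 back, and the antioxidant genes Gclc, Gclm, Gsr, Txnrd1, Srxn1, Hmox1 and G6pdx. They were taken by symbol, from a list drawn up with earlier results of these data known, and make up 9 of the 21705 genes in the table. The mice were C57BL/6J females, 10 to 12 weeks old. The 6 mice of the control group received saline, and the 6 mice of the other group received LNA29, which is 20 mg/kg of a locked nucleic acid against miR-29a together with 20 mg/kg of another against miR-29b/c. All livers were taken on day 7 after an 18 h fast, and polyadenylated RNA was sequenced. The sequenced series holds no mice that received an unrelated locked nucleic acid, so that inhibition of miR-29 and exposure to a locked nucleic acid cannot be told apart in these livers.

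In the unstressed cell, KEAP1 binds NRF2 in the cytosol and passes it to a ubiquitin ligase for degradation. Oxidants and electrophiles modify cysteines of KEAP1, NRF2 then accumulates in the nucleus, pairs with small MAF proteins and binds antioxidant response elements in front of its target genes. Its targets make glutathione, reduce oxidised glutathione, thioredoxin and peroxiredoxin, break down haem and supply NADPH. In the liver the pathway is best known for protecting hepatocytes from reactive metabolites of drugs. NRF2 is controlled mostly through its protein, which was not measured here.

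The miRNAs that LNA29 was designed to bind share their seed, bases 2 to 8 from the 5′ end, which is in capitals in the mature sequences of RefSeq (GRCm38.p6).
miR-29a-3p: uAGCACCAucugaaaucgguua
miR-29b-3p: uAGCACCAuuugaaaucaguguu
miR-29c-3p: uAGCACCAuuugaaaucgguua
The match to this seed, TGGTGCT, was searched on the sense strand of the longest 3′ UTR of each gene in GENCODE release M21 (GRCm38), which is not the build used by the authors. Of the 9 genes, Srxn1 held 1 match and the other 8 held 0. Over all 20388 genes with a 3′ UTR, 13.3% held at least 1. The site of Srxn1 lies at chr2:152111156-152111162 on the plus strand, in exon 2 of 2 and at position 1964 of a 3′ UTR of 2184 bases. It is shown in capitals within its surroundings.
Srxn1 3′ UTR: aagatgcatcgTGGTGCTggattgattct

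Antioxidant response elements were looked for as TGACNNNGC and TGAGNNNGC on both strands, from 250 bases before to 50 bases after the starts of transcription in RefSeq (GRCm38.p6). Such windows were at hand for 6 of the 9 genes, namely Nfe2l2, Keap1, Gclm, Txnrd1, Srxn1 and G6pdx, in 8 windows. A match stood in at least 1 window of 5 of these genes, while Keap1 had 0. Among all 32851 windows 27.8% held either motif, 12.4% the first and 17.6% the second. These shares are by window while the count of 5 is by gene, and Txnrd1 had several windows, so that they are not alike. The matches are in capitals, 5′ to 3′ on the strand of the gene itself, and a match on the opposite strand reads as its reverse complement. They are shown because these elements are what the NRF2 targets are known to share.
Nfe2l2, chr2:75704885-75704913, minus strand: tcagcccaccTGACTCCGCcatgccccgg
Srxn1, chr2:152105356-152105384, plus strand: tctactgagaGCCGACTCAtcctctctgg
Srxn1, chr2:152105469-152105497, plus strand: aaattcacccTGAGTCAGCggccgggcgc
Srxn1, chr2:152105542-152105570, plus strand: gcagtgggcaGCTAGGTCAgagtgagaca
Gclm, chr3:122245413-122245441, plus strand: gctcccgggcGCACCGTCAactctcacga
Txnrd1, chr10:82859104-82859132, plus strand: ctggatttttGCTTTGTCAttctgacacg
G6pdx, chrX:74428919-74428947, minus strand: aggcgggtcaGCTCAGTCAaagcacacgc
Srxn1 carried 3 of these matches, 1 of them TGAGTCAGC 45 bases before the start. A match of this kind describes the letters only and is no evidence of binding in these livers.

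Values are the deposited signal, which the authors scaled to give each liver an upper quartile of 1000 over genes with any reads (998 in saline liver 49). One read was worth between 9.80 and 24.4 of these units, and the reads on genes numbered 8217219 to 19062465 per saline liver and 7696100 to 15079274 per LNA29 liver. Livers are named by their replicate numbers in the labels. Albumin took between 35.7% and 46.9% of the reads, the lowest share in saline liver 49, which also stood apart in a trend with transcript length given below. The summed value of 8 hepatocyte markers, albumin among them, was 3.19e+07 in that liver and 7.38e+07 to 1.09e+08 in the others. The 10 genes with the most reads took 56.6% of its reads, against 67.8% to 74.6% in the others. None of the hepatocyte marker genes was at or near 0 in these livers. Differences are given on the log2(value + 1) scale as LNA29 minus saline, fitted by limma to the 12486 genes whose mean value was 10 or more. Beside it stands an exact permutation test, two-sided, that runs through every division of the 12 livers into 6 and 6. The smallest p which that test can give is 0.00216.

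All 9 genes were measured above that minimum, and for none of them did the LNA29 livers differ from the saline livers beyond the spread between livers. By limma, an adjusted p under 0.05 was reached by 0 of the 9, where 20 of the 12486 tested genes (0.16%) reached it, 0.0721% as higher and 0.0881% as lower. The count at an unadjusted limma p under 0.05 was also 0 of 9, against 7.91% of the tested genes, and at an exact permutation p under 0.05 it was 0 of 9 against 8.5%. The groups overlapped for each of the 9, while they did not overlap for 0.985% of the tested genes. The thresholds stated in the study's methods, means that differ 1.5-fold or more in either direction and a one-tailed p up to 0.05 without adjustment, took 5.84% of the 15122 genes with a p and 0 of the 9. The mean log2 value was lower in LNA29 livers for 7 of the 9 genes and for 61.4% of all tested genes, and the median difference of the 9 was -0.10 against -0.09 over all tested genes. In these bulk livers, fewer cells of a type and less RNA per cell cannot be told apart.

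**Figure D1:**
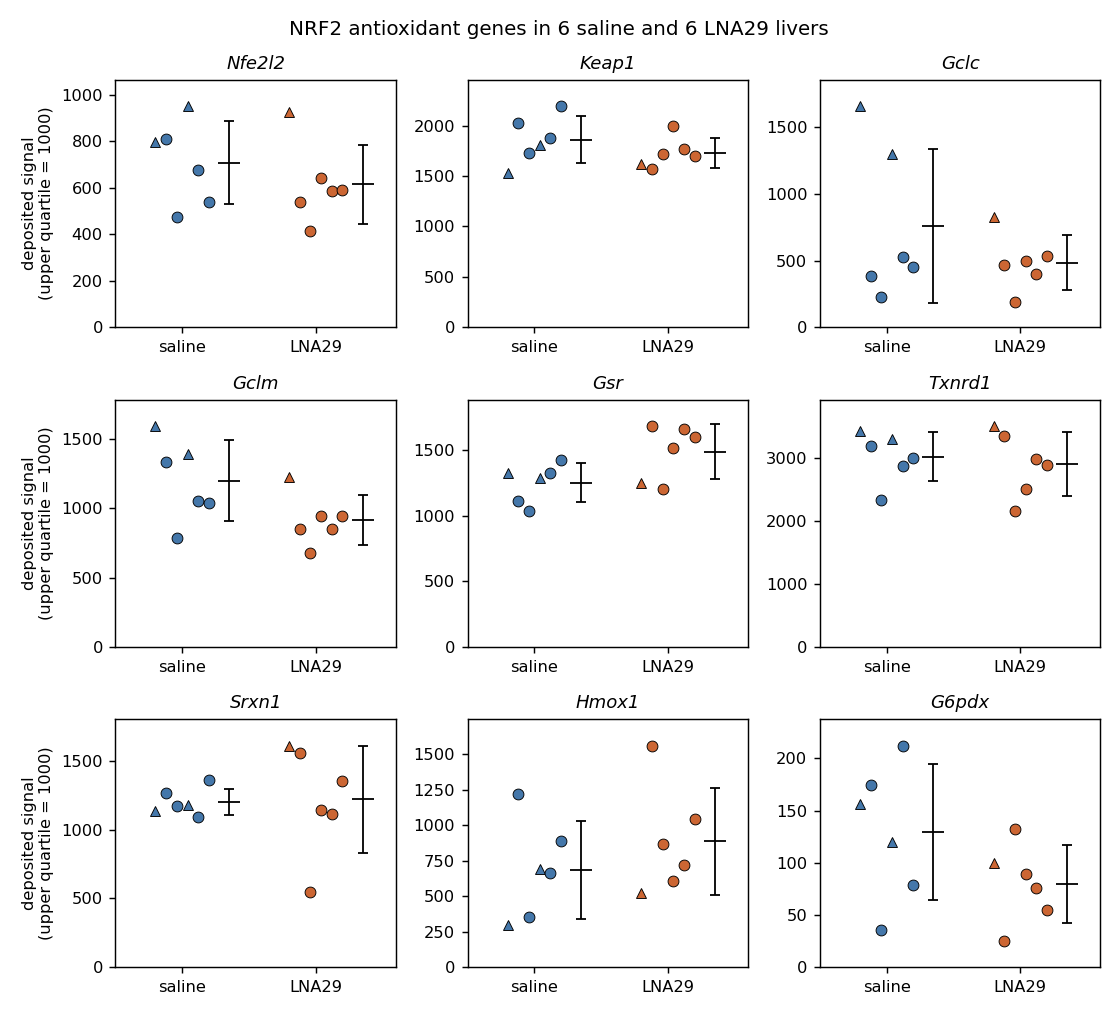
Deposited signal of the 9 genes in each liver, with the group mean and its SD in black to the right of each set of points (n = 6). Triangles are the 3 livers in which longer transcripts were relatively more abundant, and the groups overlap in every panel.

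Nfe2l2 had values from 474 to 950 with a median of 737 in saline livers, and from 415 to 925 with a median of 587 in LNA29 livers. Most LNA29 livers lay in the lower part of the saline range, and 1 of 6 lay above the saline median. The difference was -0.20 with a standard error of 0.22 and a 95% interval from -0.66 to 0.26 (limma adjusted p = 0.879, exact permutation p = 0.361). It ranged from -0.33 without LNA29 liver 44 to -0.10 without LNA29 liver 48. Keap1 was the steadier of the pair. It ranged from 1525 to 2191 with a median of 1845 in saline livers and from 1568 to 1993 with a median of 1709 in LNA29 livers, again with 1 of 6 LNA29 livers above the saline median. Its difference was -0.10 with an interval from -0.38 to 0.18 (limma adjusted p = 0.912, exact permutation p = 0.275), and it ran from -0.16 without saline liver 43 to -0.05 without saline liver 53. The log2 value of the factor minus that of its inhibitor within a liver was -1.42 ± 0.46 in saline and -1.52 ± 0.40 in LNA29 livers (SD, n = 6 each), a difference of -0.10 (exact permutation p = 0.701). That difference came to 0.0028 without LNA29 liver 48.

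Gclc and Gclm encode the catalytic and the modifier subunit of glutamate-cysteine ligase, the enzyme that sets the rate of glutathione synthesis. Gclc was the most variable of the 9 genes among saline livers. It ranged from 228 to 1656 with a median of 488 there, and from 189 to 825 with a median of 482 in LNA29 livers. The medians thus nearly coincided, while the ratio of means was 0.640 because saline livers 43 and 49 were far above the other saline livers. The coefficient of variation was 76.4% in saline and 42.7% in LNA29 livers. The difference of -0.42 had an interval from -1.33 to 0.48 (limma adjusted p = 0.874, exact permutation p = 0.448). It was -0.13 without saline liver 43, -0.20 without saline liver 49, -0.18 without LNA29 liver 48 and -0.70 without saline liver 47. In LNA29 liver 48 the value rested on 10 reads, and in saline liver 49 on 130.

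Gclm ran from 789 to 1594 (median 1192) in saline livers and from 679 to 1225 (median 899) in LNA29 livers. In LNA29 livers 1 of 6 values exceeded the saline median and 1 of 6 fell under the lowest saline value. The difference was -0.37 with a standard error of 0.19 and an interval from -0.77 to 0.03 (limma adjusted p = 0.672, exact permutation p = 0.0714). Among the 12 fits that left out 1 liver, the exact permutation p was 0.0216 without saline liver 47 and 0.0368 without LNA29 liver 44, and between 0.0714 and 0.149 in the others. The smallest limma adjusted p over 22 alternatives was 0.201. The balance of both subunits within a liver, Gclc minus Gclm, was -0.97 ± 0.80 in saline and -1.02 ± 0.44 in LNA29 livers (SD, n = 6 each; exact permutation p = 0.911).

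Gsr and Txnrd1 encode glutathione reductase and the cytosolic thioredoxin reductase, which use NADPH to return glutathione and thioredoxin to their reduced forms. Gsr was 1 of the 2 genes with a higher mean log2 value in LNA29 livers. It ranged from 1035 to 1422 (median 1307) in saline livers and from 1208 to 1683 (median 1560) in LNA29 livers. In LNA29 livers 4 of 6 values lay above the highest saline liver, while livers 44 and 48 lay below the saline median. The difference was 0.24 with a standard error of 0.15 and an interval from -0.06 to 0.55 (limma adjusted p = 0.735, exact permutation p = 0.0541). The exact permutation p was 0.0390 without saline liver 53, 0.0325 without LNA29 liver 44 and 0.0238 without LNA29 liver 48, and over all 12 such fits it reached 0.115. The smallest limma adjusted p over 22 alternatives was 0.320.

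Txnrd1 was the most abundant of the 9 per length. It ran from 2333 to 3422 with a median of 3090 in saline livers and from 2151 to 3500 with a median of 2936 in LNA29 livers, so that the highest and the lowest value of all 12 livers were both in the LNA29 group. The difference was -0.07 with an interval from -0.38 to 0.24 (limma adjusted p = 0.951, exact permutation p = 0.623), and it was 0.013 without LNA29 liver 48. The log2 value of Txnrd1 minus that of Gsr within a liver does not depend on how libraries are scaled. It ran from 1.07 to 1.52 (median 1.26) in saline livers and from 0.72 to 1.48 (median 0.85) in LNA29 livers. The mean was lower by 0.31 in LNA29 livers (1.27 ± 0.17 against 0.95 ± 0.27, SD, n = 6 each), with an exact permutation p of 0.0476 that became 0.143 with Benjamini-Hochberg adjustment over the 3 pairs compared. That p was between 0.0606 and 0.0952 when any of saline livers 43, 45, 47 and 49 or LNA29 livers 46, 48, 50, 52 and 54 was left out, and 0.0043 without LNA29 liver 44. The last fit kept saline livers 43 and 49, which share with LNA29 liver 44 the trend with transcript length given below. The part of that trend in this pair was not tested.

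Srxn1 encodes sulfiredoxin, which repairs overoxidised peroxiredoxins, and is the gene with the miR-29 seed match shown above. Saline livers were close together, from 1091 to 1363 with a median of 1178 and a coefficient of variation of 8.12%. LNA29 livers ran from 547 to 1613 with a median of 1250 and a coefficient of variation of 31.9%. The lowest of them, liver 48, stood under every saline liver, while 2 of 6 stood above the highest. The difference was -0.05 with an interval from -0.51 to 0.40 (limma adjusted p = 0.979, exact permutation p = 0.911). It was 0.16 without LNA29 liver 48 and 0.0094 with a trimmed mean scaling, so that no direction can be given for this gene.

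Hmox1 encodes haem oxygenase 1, which opens the haem ring and is abundant in the macrophages that take up old red cells. It was the other gene with a higher mean log2 value in LNA29 livers. It ranged from 297 to 1222 (median 678) in saline livers and from 525 to 1561 (median 792) in LNA29 livers. In LNA29 livers 4 of 6 values exceeded the saline median and 1 of 6, liver 46, exceeded the highest saline liver. The difference was 0.44 with a standard error of 0.33 and an interval from -0.26 to 1.13 (limma adjusted p = 0.805, exact permutation p = 0.290). It was 0.23 without saline liver 43, 0.28 without saline liver 47, 0.25 without LNA29 liver 46 and 0.64 without saline liver 45. The summed value of 11 Kupffer cell markers ran from 14266 to 23211 in saline and from 13232 to 25356 in LNA29 livers, and LNA29 liver 46, the highest for Hmox1, had 14268. Of these 11 markers 9 had a lower mean log2 value in LNA29 livers and 0 an adjusted p under 0.05, with a median difference of -0.13 over the list. Marco, a scavenger receptor gene named here after its value was seen, ran against those 9. It was the 1 of the 11 markers with an unadjusted limma p under 0.05, which 7.91% of all tested genes reached. It had 514 ± 241 in saline and 1257 ± 1081 in LNA29 livers (SD, n = 6 each), a difference of 1.08 (limma adjusted p = 0.391). The part of these cells in the values of Hmox1 was not tested.

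G6pdx encodes glucose-6-phosphate dehydrogenase, the first enzyme of the pentose phosphate pathway and a source of NADPH. It was by far the lowest of the 9 genes and rested on 1 to 21 reads per liver. Its values ran from 35.1 to 212 (median 138) in saline livers and from 24.4 to 132 (median 82.4) in LNA29 livers. Of the LNA29 livers 0 of 6 exceeded the saline median, though 5 of 6 stayed above the lowest saline liver. The difference of -0.66 had a standard error of 0.49 and an interval from -1.69 to 0.37 (limma adjusted p = 0.804, exact permutation p = 0.227). It was -0.99 without saline liver 47 (exact permutation p = 0.0411, limma adjusted p = 0.569) and -0.36 without LNA29 liver 46, whose value stood for 1 read. G6pd2, a nearly identical copy of this gene, had at most 1 read in any liver and was not tested.

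**Figure D2:**
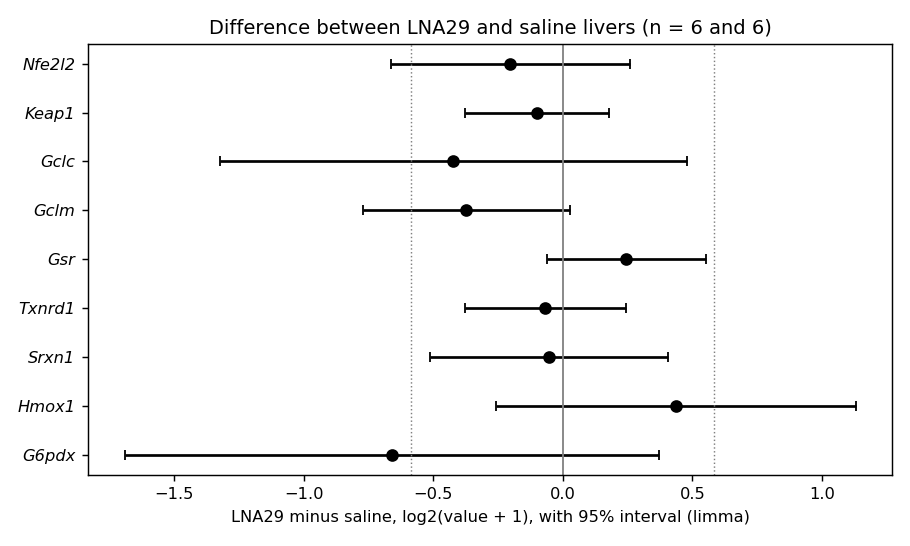
Difference between LNA29 and saline livers for each gene on the log2(value + 1) scale, with the 95% interval from limma, and dotted lines at a change of 1.5-fold in either direction. All 9 intervals hold 0, and those of Keap1, Gsr, Txnrd1 and Srxn1 lie between the dotted lines.

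For 4 of the 9 genes, Keap1, Gsr, Txnrd1 and Srxn1, the 95% interval lay inside a change of 1.5-fold in either direction. For Keap1 it ran from 0.769 to 1.13 and for Gsr from 0.958 to 1.47 on the fold scale. For Gclc it ran from 0.399 to 1.40 and for G6pdx from 0.310 to 1.29, and a marked fall of either gene is not excluded. Gclc and G6pdx were the 2 genes whose ratio of means was past 1.5-fold, at 0.640 and 0.613. The intervals of Nfe2l2 (0.632 to 1.20), Gclm (0.586 to 1.02) and Hmox1 (0.837 to 2.19) also reached past a 1.5-fold change.

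Levels between genes were compared per 1000 bases of the longest coding transcript. In saline livers Txnrd1 came first with a mean level of 833 ± 108 per 1000 bases, above Keap1 with 515 ± 64.3 (SD, n = 6 each) without overlap of their ranges. Keap1, Gsr, Hmox1 and Srxn1 followed in this order, down to 428 ± 34.7 for Srxn1, and the ranges of neighbours overlapped. Nfe2l2 with 286 ± 72.5 lay wholly under Srxn1, and its range overlapped that of Gclc, as the range of Gclc did that of Gclm. G6pdx was last with 48.8 ± 24.5, under all values of Gclm. In LNA29 livers Txnrd1 and G6pdx kept the first and last place, Hmox1 stood in the second and Keap1 in the fourth, and G6pdx was separated from its neighbour Gclc while all other neighbours overlapped. By mean level per 1000 bases, the genes that make glutathione were among the lower of the 9. The reductases that keep it and thioredoxin reduced were among the higher ones. This order depends on the transcript length used: before division by length, the saline mean of Gclm was 1199 and that of Gsr 1252. Per 1000 bases, the saline range of Gclc, 66.6 to 484, overlapped that of Gsr, 387 to 532.

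Livers of both groups also differed in a trend with transcript length. For each liver, the deviation of every gene from its mean over the 12 livers was set against the length of its longest coding transcript over 12141 genes. Spearman's rho of this trend was 0.276 in saline liver 43, 0.497 in saline liver 49 and 0.257 in LNA29 liver 44, and between -0.295 and 0.0566 in the other 9 livers. Gclc was at 825 to 1656 in those 3 livers and at 189 to 534 in the other 9. It was the only gene of the 9 for which the 3 stood above all others. For Gclm they held 1225 to 1594 against 679 to 1333, for Nfe2l2 797 to 950 against 415 to 810, and for Txnrd1 3300 to 3500 against 2151 to 3341. Keap1 and Hmox1 tended the other way, with 1525 to 1811 against 1568 to 2191 and 297 to 690 against 351 to 1561. For Gsr, Srxn1 and G6pdx the 3 livers lay within or across the range of the others, with 1250 to 1328 against 1035 to 1683, 1141 to 1613 against 547 to 1561, and at most 156 against 24.4 to 212.

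**Figure D3:**
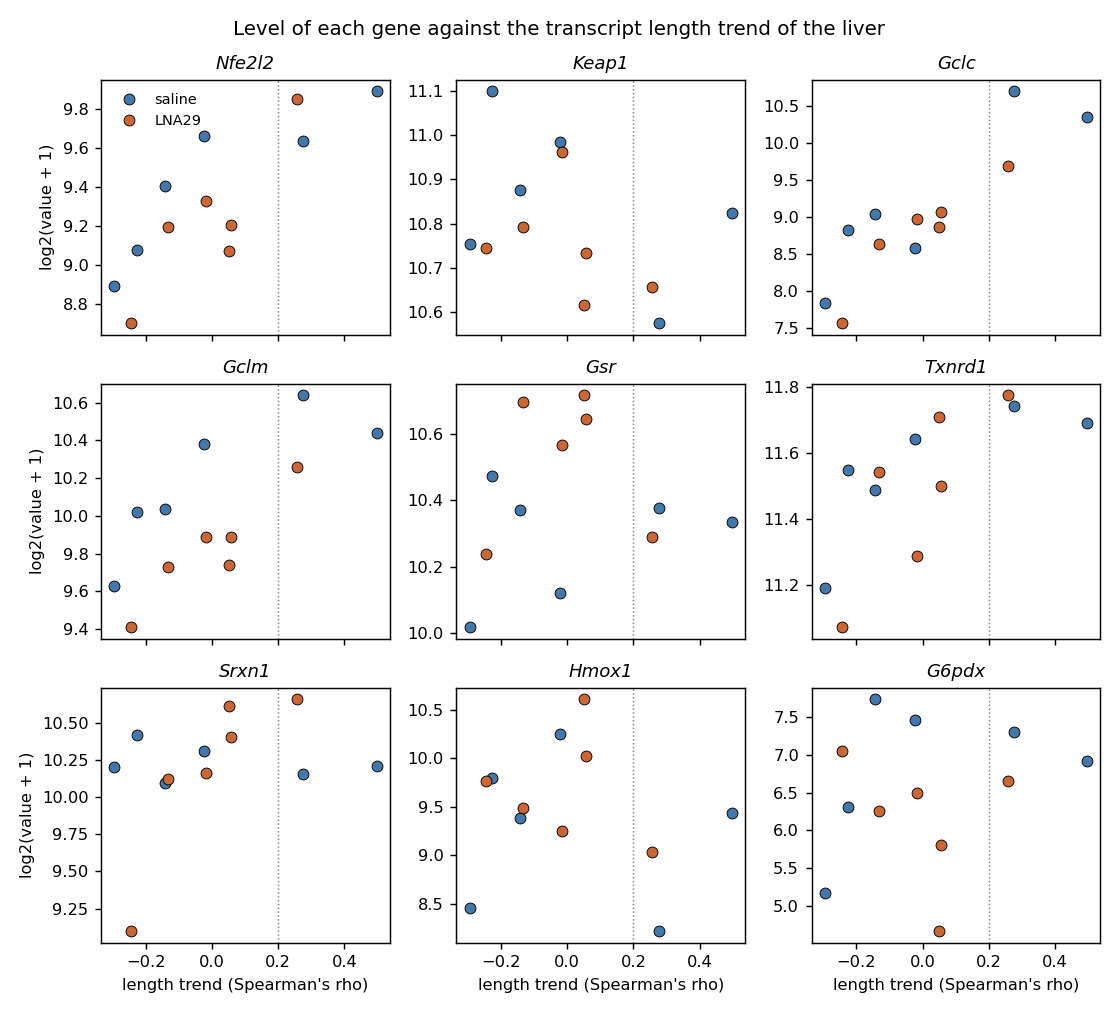
Level of each gene on the log2(value + 1) scale against the length trend of the liver, with saline livers in blue, LNA29 livers in orange and a dotted line at a rho of 0.2. The 3 livers to the right of the line hold the highest values of Gclc, and the livers at the left end hold the lowest values of Nfe2l2, Gclc, Gclm and Txnrd1.

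The opposite end of this trend held saline liver 47, with a rho of -0.295, and LNA29 liver 48, with -0.244. LNA29 liver 48 had the lowest value of all 12 livers for 5 of the 9 genes, which were Nfe2l2, Gclc, Gclm, Txnrd1 and Srxn1. Saline liver 47 was the lowest saline liver for 6 of the 9 and the second lowest of the 12 for 6. The share of all tested genes for which a given liver was lowest or highest is not given here. Such counts are therefore not shown to be particular to the 9 genes. The summed value of 4 blood markers, haemoglobin genes among them, was 154250 in saline liver 47 and 171369 in LNA29 liver 48, the highest of their groups, against a lowest value of 36679 in saline liver 43. Saline liver 53 and LNA29 liver 52 came close to them with 143387 and 135845. Saline liver 53 was the highest saline liver for 3 of the 9 genes, and LNA29 liver 52 the lowest LNA29 liver for 0. Counted from the highest of the 12 livers, LNA29 liver 52 ranked between 2 for Gsr and 10 for Gclm and Srxn1. The part of blood and of transcript length in the levels of the 9 genes was not tested.

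With the length trend of each liver as a covariate, the standard error of the Gclc difference went from 0.43 to 0.22 while the difference itself was -0.36 (limma adjusted p = 0.552). That of Gclm was -0.35 with a standard error of 0.13, an unadjusted limma p of 0.0143 and an adjusted p of 0.246. Without the 3 livers with a rho above 0.2, a limit chosen after the data were seen and met by the 3 livers with the highest Gclc, the Gclc difference was 0.05. The number of the 9 genes with an adjusted p under 0.05 was 0 in this fit, in the fit with the covariate and in all other alternatives, 22 in number.

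**Figure D4:**
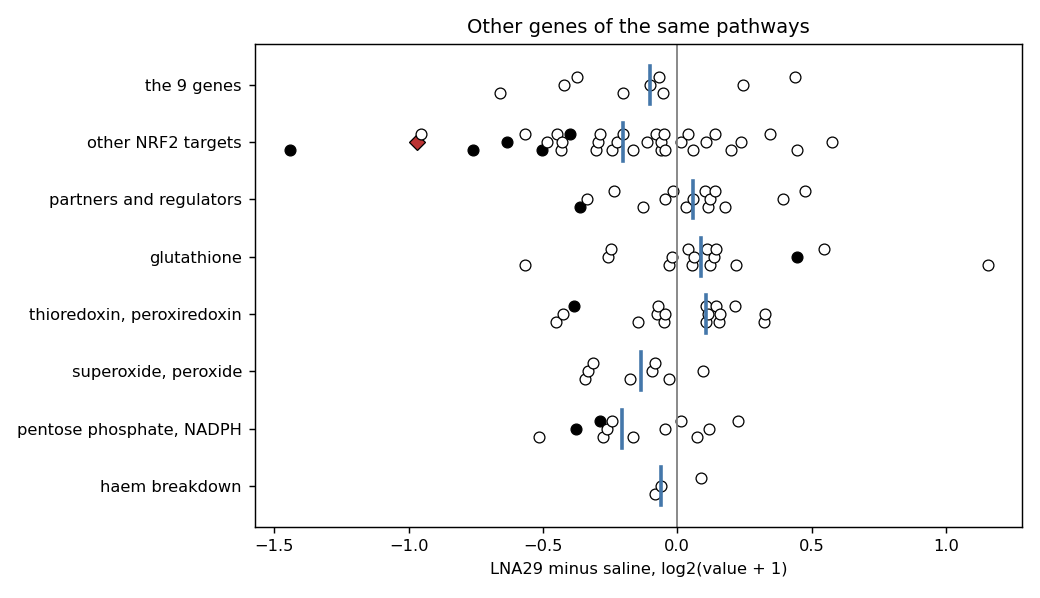
Difference between LNA29 and saline livers on the log2(value + 1) scale for each tested gene of 8 lists, with the list's median as a blue bar. Some genes stand in several lists. Filled points have an unadjusted limma p under 0.05, and the red diamond, Aox1, is the only gene here with an adjusted p under 0.05.

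Beyond the 9 genes, 35 other known NRF2 targets passed the minimum, among them genes of glutathione transferases, drug reductases and transporters. In LNA29 livers 25 had a lower and 10 a higher mean log2 value, as lower and higher are counted in all lists here, with a median difference of -0.20 against -0.09 over all tested genes. Lower values with an unadjusted limma p under 0.05 were found for 6 of the 35, where 5.97% of the tested genes had one, and higher values for 0, where 1.95% had one. One, Aox1, had an adjusted p under 0.05, where 0.0881% of the tested genes were called lower. The list was written with earlier results of these data known, so that these counts describe it and are no test of it. Gstm6, Gsta2, Gstm3 and Gstm2, among whose families reads can be split between nearly identical copies, were among the 6. Aox1 encodes aldehyde oxidase, a hepatocyte enzyme that oxidises aldehydes and many drugs. It fell from 667 ± 87.3 in saline to 344 ± 72.7 in LNA29 livers (SD, n = 6 each). All 6 LNA29 livers, between 264 and 466, lay under all 6 saline livers, between 588 and 813, and 0.985% of all tested genes had no overlap. The difference was -0.97 with a standard error of 0.19 (limma adjusted p = 0.0481, exact permutation p = 0.00216). The call was close to the threshold. When any single liver was left out the limma adjusted p was between 0.0572 and 0.171 and the difference between -1.06 and -0.90. With a common median for all livers the adjusted p was 0.0727, and with the length covariate it was 0.00956. Over 22 alternatives it was between 0.00749 and 0.235, and under 0.05 in 5 of them.

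The other targets with the smallest p were transferases that join glutathione to reactive compounds, and none of them passed the adjustment with all livers. Gstm6 had 1061 ± 376 in saline and 659 ± 110 in LNA29 livers (limma adjusted p = 0.347). Gsta2 had 402 ± 64.7 and 233 ± 273, with 1 LNA29 liver at 771 above every saline liver (limma adjusted p = 0.417). Its adjusted p was between 0.0308 and 0.858 over 22 alternatives and under 0.05 in 2 of them, values beyond 1.5 SD left out and LNA29 liver 48 left out. Without that liver, which held the value of 771, the difference was -1.92 (adjusted p = 0.0468). Gstm3 had 1053 ± 488 and 637 ± 307 (limma adjusted p = 0.486), and Gstm2 had 2864 ± 1186 and 1941 ± 456 (limma adjusted p = 0.594, SD, n = 6 each for these genes). These families hold nearly identical copies between which reads can be split, so that the values of single members are uncertain. Nqo1, a quinone reductase often taken as the marker of NRF2 activity, had 153 ± 39.6 in saline and 189 ± 74.0 in LNA29 livers, on 4 to 21 reads per liver. Its difference was 0.24 with an interval from -0.47 to 0.94 (limma adjusted p = 0.924).

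Among 15 partners and regulators of NRF2, 6 were lower and 9 higher in LNA29 livers, with a median of 0.06 and 0 adjusted p under 0.05. An unadjusted limma p under 0.05 was reached by 1 of the 15, against 7.91% of all tested genes. Dcaf11, which encodes a substrate receptor of another ubiquitin ligase that acts on NRF2, was at 6432 ± 548 in saline and 4997 ± 353 in LNA29 livers (SD, n = 6 each). The groups did not overlap, as was so for 0.985% of all tested genes. The difference was -0.36 with an exact permutation p of 0.00216 and a limma adjusted p of 0.306. The adjusted p was between 0.0297 and 0.679 over 22 alternatives and under 0.05 in 1 of them.

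Of 17 genes of the thioredoxin and peroxiredoxin system 8 were lower and 9 higher, with a median of 0.11. Prdx6, a peroxiredoxin that reduces oxidised phospholipids, was at 9481 ± 672 in saline and 7264 ± 542 in LNA29 livers (SD, n = 6 each). All LNA29 livers, between 6547 and 7951, lay under all saline livers, between 8784 and 10672. The groups did not overlap for 0.985% of all tested genes. The difference was -0.38 with an exact permutation p of 0.00216, and a limma adjusted p of 0.255 that ranged from 0.0489 to 0.514 over 22 alternatives.

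The lists share genes, so that their counts are not separate. Slc7a11, Blvrb and Tkt, for example, are counted below and also among the other NRF2 targets. The 16 tested genes of glutathione use and synthesis outside the 9 were lower in 5 and higher in 11 cases, with a median of 0.09. Glrx5, a mitochondrial glutaredoxin that serves the assembly of iron-sulphur clusters, had 3816 ± 1075 in saline and 5088 ± 696 in LNA29 livers (SD, n = 6 each), a difference of 0.44 (limma adjusted p = 0.433). Of 12 genes of the pentose phosphate pathway and other sources of NADPH, 8 were lower and 4 higher, with a median of -0.20. H6pd, the counterpart of G6pdx in the endoplasmic reticulum, had 8913 ± 1111 and 6897 ± 1217 (limma adjusted p = 0.455). Mthfd1, a folate enzyme that can yield NADPH, had 5624 ± 418 and 4643 ± 683 (limma adjusted p = 0.597, SD, n = 6 each). The 8 genes that remove superoxide and peroxide were lower in 7 cases with a median of -0.14, and the 3 other genes of haem breakdown lower in 2 with a median of -0.06. In each of these lists 0 genes had an adjusted p under 0.05 by limma, and in the last 2 lists 0 genes had an unadjusted p under 0.05. In the first 2 lists an unadjusted limma p under 0.05 was reached by 1 of the 16 and 2 of the 12 genes, against 7.91% of all tested genes.

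The markers of other cell types gave 0 adjusted p under 0.05 in any list. By mean log2 value, 3 of 8 hepatocyte, 5 of 7 sinusoidal endothelial, 4 of 6 stellate cell, 2 of 5 bile duct and 2 of 4 blood markers were lower in LNA29 livers, with medians of 0.20, -0.07, -0.14, 0.13 and 0.01. The summed blood markers ranged from 36679 to 154250 in saline and from 37506 to 171369 in LNA29 livers, an overlap over nearly the whole range.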

How the data were processed

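RNA from 12 livers, 6 per group by the labels, was analysed. Single reads of polyadenylated RNA were mapped by the authors with MapSplice2, and RSEM gave estimated reads for each gene, which they deposited as a scaled signal in 1 table. Per the labels the genome build was mm9, and versions are not given in the sources used here. Each deposited liver was scaled to an upper quartile of 1000, and genes without reads were listed at 1. In each liver 91.6% to 93.6% of values were a whole number of times the worth of 1 read (within 0.02), which gave the depth and the reads quoted. Precision is limited by these reads, which cover counting error only. The authors' means, fold changes and p-values were not used, nor were 3 unnamed columns of values.

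Values were compared as log2(value + 1) with limma 3.58.1 (R 4.3.3), with a trend, for the 12486 genes whose mean was 10 or more, Benjamini-Hochberg adjustment and a threshold of 0.05. Single values were tested by two-sided exact permutation in Python 3.11.15. The genes and lists were chosen with earlier results of these data known. Named are all 9 genes, and from each list those with an adjusted p under 0.05, then up to 4 with the smallest unadjusted p under 0.05, with Nqo1 and G6pd2. Alternatives were pseudocounts of 0.1 and 10, other filters and scalings, array weights, the length covariate, values beyond 1.5 SD left out, and each liver left out in turn.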

Additional observations from a re-analysis of the deposited data

Results flagged for a closer look

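Among 24 sets of 6 livers, the 9 genes and 3 pairs in either group, 2 held a single liver far from the rest by Dixon's test, where chance alone gives about 1.2. For Srxn1 the log2 value of LNA29 liver 48 was 9.10, while the other 5 LNA29 livers lay between 10.12 and 10.66, a gap of 0.657 of the whole range. For the log2 value of Txnrd1 minus that of Gsr, LNA29 liver 44 stood at 1.48, within the saline range, while the other 5 LNA29 livers lay between 0.72 and 0.99, a gap of 0.648 of the range.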

How the results depend on the processing

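None of the 9 genes reached an adjusted p under 0.05 in limma under any of 22 alternatives, and the median difference of the 9 stayed between -0.15 and -0.07 when each liver was left out. The number of all tested genes with an adjusted p under 0.05 was less stable. From 20 it went to 5 without a filter on low values, 10 with a common median, 58 with array weights, 124 with the length covariate, 217 with values beyond 1.5 SD left out, and 5 without the 3 livers with a length trend above 0.2. With each liver left out it ranged from 1 to 29. It was 1 without saline liver 43 or LNA29 liver 50 or 54, 3 without saline liver 51, 7 without saline liver 53, 9 without LNA29 liver 46, 10 without LNA29 liver 52 and 11 without saline liver 47. The cause was not tested.

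The sign of the difference turned for Gclc without the livers with a length trend above 0.2 (0.049), and for Srxn1 with trimmed mean scaling (0.0094), array weights (0.049) and values beyond 1.5 SD left out (0.197). With each liver left out, the difference ranged from -0.151 to 0.161 for Srxn1 and from -0.141 to 0.013 for Txnrd1, positive in both only without LNA29 liver 48. Gclc minus Gclm was 0.0656 with values beyond 1.5 SD left out and between -0.216 and 0.156 with each liver left out, positive without saline liver 43 or 49 or LNA29 liver 48. Nfe2l2 minus Keap1 ranged from -0.245 to 0.0028. Txnrd1 minus Gsr lost an exact permutation p under 0.05 with values beyond 1.5 SD left out (-0.33) and in 9 of the 12 fits with a liver left out, with differences between -0.42 and -0.26. Causes were not tested.

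No paired analysis was possible because the groups share no replicate numbers. The planned count tests and TMM scaling were not run, and an unweighted trimmed mean took the place of the latter. G6pdx and Nqo1 rested on few reads, 1 to 21 and 4 to 21 per liver.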
